A study of Rattus norvegicus with 6 samples.

Results

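rno-miR-26a-5p, rno-miR-26b-5p, rno-miR-101a-3p and rno-miR-101b-3p are the members of the miR-26 and miR-101 families described here, 4 of the 763 mature miRNAs in a small RNA sequencing table of rat serum exosomes. They were chosen by name, because both families are known to repress Ezh2 and to limit fibrosis of the heart. Exosomes, small vesicles shed by cells into blood, were taken from the serum of male Sprague-Dawley rats, 9 to 10 weeks old and of 250 to 280 g. The 3 IPC libraries followed ischemic preconditioning, with the left anterior descending coronary artery tied for 5 min and released for 5 min in each of 3 cycles, and the 3 control libraries came from blood drawn the same way with no preconditioning. All rats were anaesthetised with pentobarbital. No sham operation is described for the controls, so the surgery and the ischemia cannot be told apart. Whether each library stands for its own rat is not stated, so the spread behind the p-values is that between libraries and may be technical.

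Ezh2 is the catalytic subunit of a Polycomb repressive complex, which methylates histone H3 and silences genes. miR-26a and miR-101 were each shown in human and mouse cells to bind the Ezh2 mRNA and lower its protein. In the heart, miR-101a was reported to reduce scarring in infarcted rats, and miR-26a to restrain collagen and connective tissue growth factor in mice. These roles are background: no mRNA, protein or fibrosis was measured in these samples.

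The mature sequences show why the members form 2 families, since a miRNA chooses its targets mainly through its seed, bases 2 to 8, printed in capitals (RefSeq, rat build GRCr8).
rno-miR-26a-5p: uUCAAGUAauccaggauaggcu
rno-miR-26b-5p: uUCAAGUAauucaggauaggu
rno-miR-101a-3p: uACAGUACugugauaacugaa
rno-miR-101b-3p: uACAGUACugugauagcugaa
rno-miR-144-3p: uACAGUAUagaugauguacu
The miR-26 pair shares its whole seed and differs by C11U and C21U, positions counted from 1 at the 5′ end of miR-26a-5p, which is 22 bases long against 21. miR-101a-3p and miR-101b-3p differ by the single substitution A16G, outside the seed. With so little between paralogs, the division of reads inside each pair is uncertain, because the submitters' alignment settings are not stated in the labels. Of the 686 miRNAs of the table that matched a RefSeq mature sequence, 0 others carried either seed. The red-cell miRNA miR-144-3p is printed because it alone shared bases 2 to 7 with the miR-101 pair, with C8U in the last seed base.

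The members come from 4 separate hairpins, printed with the measured arm in capitals because nearly all counts lay on that arm. Mir26a lies at chr8:127633048-127633137 (+) inside the protein-coding gene Ctdspl, and Mir26b at chr9:83425709-83425793 (+) inside Ctdsp1, 2 genes of small phosphatases. Mir101-2, which makes miR-101b, lies at chr1:236273922-236274018 (+) inside Rcl1, a gene of ribosomal RNA processing. Mir101a, at chr5:121081683-121081757 (-), lies inside the long noncoding RNA gene LOC120102934. These positions are GRCr8, and the submitters' processing notes name rn6.
Mir26a: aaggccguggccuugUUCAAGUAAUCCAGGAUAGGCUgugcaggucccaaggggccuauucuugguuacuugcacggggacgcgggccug
Mir26b: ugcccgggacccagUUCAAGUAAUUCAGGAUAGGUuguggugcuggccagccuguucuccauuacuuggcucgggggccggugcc
Mir101a: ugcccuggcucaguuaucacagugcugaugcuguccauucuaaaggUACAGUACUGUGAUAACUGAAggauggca
Mir101-2: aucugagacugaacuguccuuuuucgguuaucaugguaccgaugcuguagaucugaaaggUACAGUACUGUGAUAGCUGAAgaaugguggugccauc
Over the 6 libraries the 4 members held 12989 counts and the 4 opposite arms 10. miR-26b-3p had 7 of those 10, with 4 in control replicate 1 and 3 in IPC replicate 1. miR-26a-3p had 2, both in IPC replicate 1, and miR-101a-5p had 1, in IPC replicate 3. miR-101b-5p had 0 counts in every library, which allows a share of up to 0.00270% in the shallowest. Control replicate 1 was thus the library in which miR-26b-3p had as many counts, 4, as miR-26b-5p.

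The libraries differed in depth. Recovered counts added up to between 111048 and 152343 in controls and between 319285 and 762927 after IPC. A further control difference bears on all members: control replicate 2 was higher than the other controls for each of the 4. All 4 members passed the abundance filter and were tested among 226 miRNAs. Blood-cell markers were present throughout, with 0 of 4 red-cell and 0 of 4 platelet and leukocyte markers at 0 counts in any library. The table holds no marker of vesicles, so their purity was not checked here. How many vesicles a sample held and how much miRNA each carried cannot be told apart.

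The miR-101 pair was higher in IPC than in control libraries on average, and miR-101b-3p was the member whose groups did not overlap. Its deposited normalised values, which are counts moved to a common library size, were 92.1, 202 and 28.2 in control replicates 1, 2 and 3, and 268, 517 and 426 in IPC replicates 1, 2 and 3. Each IPC library was above each control, the nearest being IPC replicate 1 and control replicate 2. The means were 404 ± 126 after IPC and 107 ± 87.7 in controls (± SD of 3). The log2 fold change was 2.25 (SE 0.79) on the log2(value + 1) scale, or 4.77-fold, with a 95% interval of 0.51 to 4.0. It did not pass the threshold of 0.05 after adjustment over all 226 miRNAs (limma, unadjusted p = 0.0160, adjusted p = 0.350). Without control replicate 3, the lowest library, it was 1.51 (adjusted p = 0.920). It ranked 9 by p and 11 by log2 fold change among the tested miRNAs.

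1 of the 4 members had non-overlapping groups, where 12.4% of the tested miRNAs had all IPC above all control libraries. At an unadjusted p below 0.05, 1 of 4 members was higher, against 8.85% of those tested, and at an adjusted p below 0.05 none was, against 0.00%. With 4 members, these counts do not set the group apart from the table as a whole. In the authors' deposited table miR-101b-3p had a log2 fold change of 1.91 and an unadjusted p = 0.0222. It was the only member under 0.05 in the authors' deposited table, where 3.01% of all listed miRNAs were under 0.05 and higher after IPC. That share is over all 763 listed miRNAs, of which only 480 had a count in any library.

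miR-101a-3p, its near-twin, was at 104, 225 and 71.4 in control replicates 1, 2 and 3 and at 173, 346 and 368 in IPC replicates 1, 2 and 3. The groups overlapped through a single pair, control replicate 2 lying above IPC replicate 1. The means were 296 ± 107 after IPC and 134 ± 80.9 in controls (± SD of 3), a log2 fold change of 1.23 (SE 0.70) with a 95% interval of -0.32 to 2.78. The difference did not pass the test (limma, adjusted p = 0.531). The authors' deposited table gives 1.14, with an unadjusted p = 0.136.

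miR-26a-5p was the most abundant member, and its mean value ranked 41 among the tested miRNAs. Its values were 588, 1597 and 375 in control replicates 1, 2 and 3 and 1128, 515 and 1261 in IPC replicates 1, 2 and 3. The highest library of all was a control, replicate 2, and IPC replicate 2 lay below control replicate 1. With means of 968 ± 398 after IPC and 853 ± 653 in controls (± SD of 3), the log2 fold change was 0.35 (SE 0.72), close to the median of 0.38 over all tested miRNAs. Its 95% interval ran from -1.23 to 1.94 (limma, adjusted p = 0.860), a range which holds both a fall and a rise of over 2-fold. Without control replicate 3 its sign turned, to -0.10, and without control replicate 2 it was 0.94. The authors' deposited table gives 0.18 (unadjusted p = 0.816).

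miR-26b-5p, the rarest member, was at 13.4, 102 and 16.7 in control replicates 1, 2 and 3 and at 72.5, 45.8 and 160 in IPC replicates 1, 2 and 3. These rested on 4, 83 and 7 recovered counts in the controls and on 195, 110 and 216 after IPC. Control replicates 1 and 3 were below every IPC library, and control replicate 2 was above IPC replicates 1 and 2. The log2 fold change was 1.47 (SE 0.89), with a 95% interval of -0.48 to 3.41 (limma, adjusted p = 0.535). It was 0.94 without control replicate 1. The authors' deposited table gives 1.05 (unadjusted p = 0.251).

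**Figure D1:**
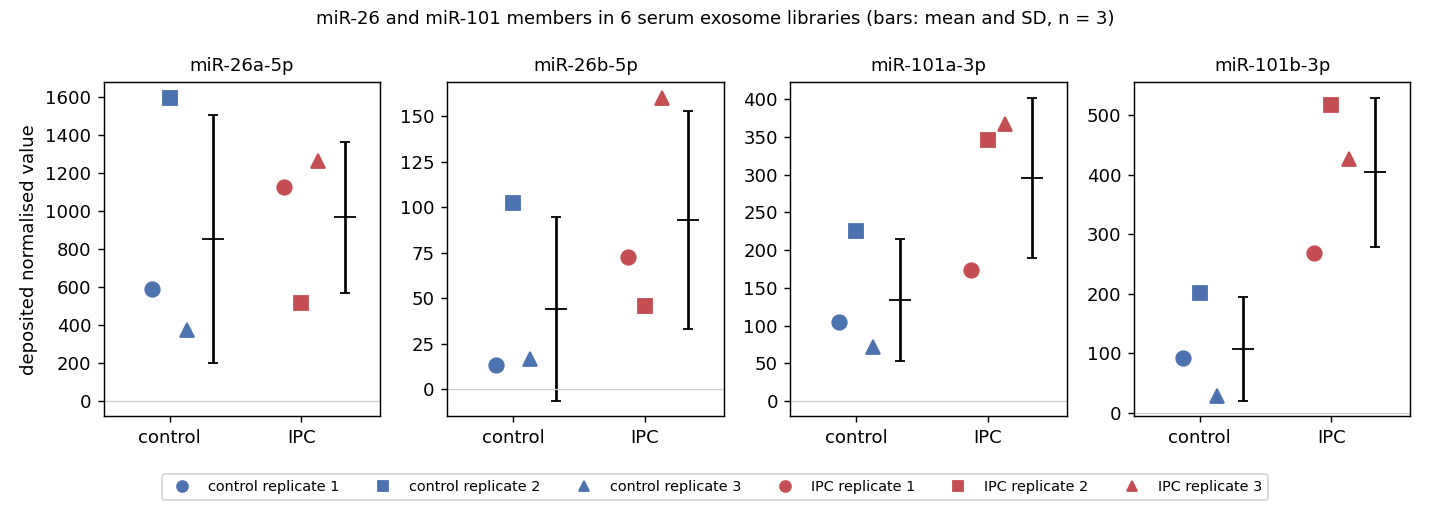
Deposited normalised value (vertical axis, a linear scale of its own for each miRNA) of the 4 members in control (blue) and IPC (red) libraries, with marker shape giving the replicate and black bars the mean and SD of 3. In each plot control replicate 2 is the highest control, and for miR-101b-3p the 3 IPC values, 268 to 517, lie above every control.

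All 4 log2 fold changes were above 0, as were 62.8% of those of the 226 tested miRNAs. Taken relative to the median of 0.38, they were -0.029 for miR-26a-5p, 1.09 for miR-26b-5p, 0.85 for miR-101a-3p and 1.87 for miR-101b-3p. Removing control replicate 2 moved every member up. miR-101b-3p then had a log2 fold change of 2.91 (limma, adjusted p = 0.0121) and miR-26b-5p of 2.37 (adjusted p = 0.0411), so 2 of the 4 passed, where 12.8% of the tested miRNAs were called higher. Without that library miR-101a-3p was at 1.69 (adjusted p = 0.0754) and miR-26a-5p remained short of the threshold (adjusted p = 0.393). Leaving out any other single library gave no call among the 4 members. The plot of settings gives the value of each member with each library left out.

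**Figure D2:**
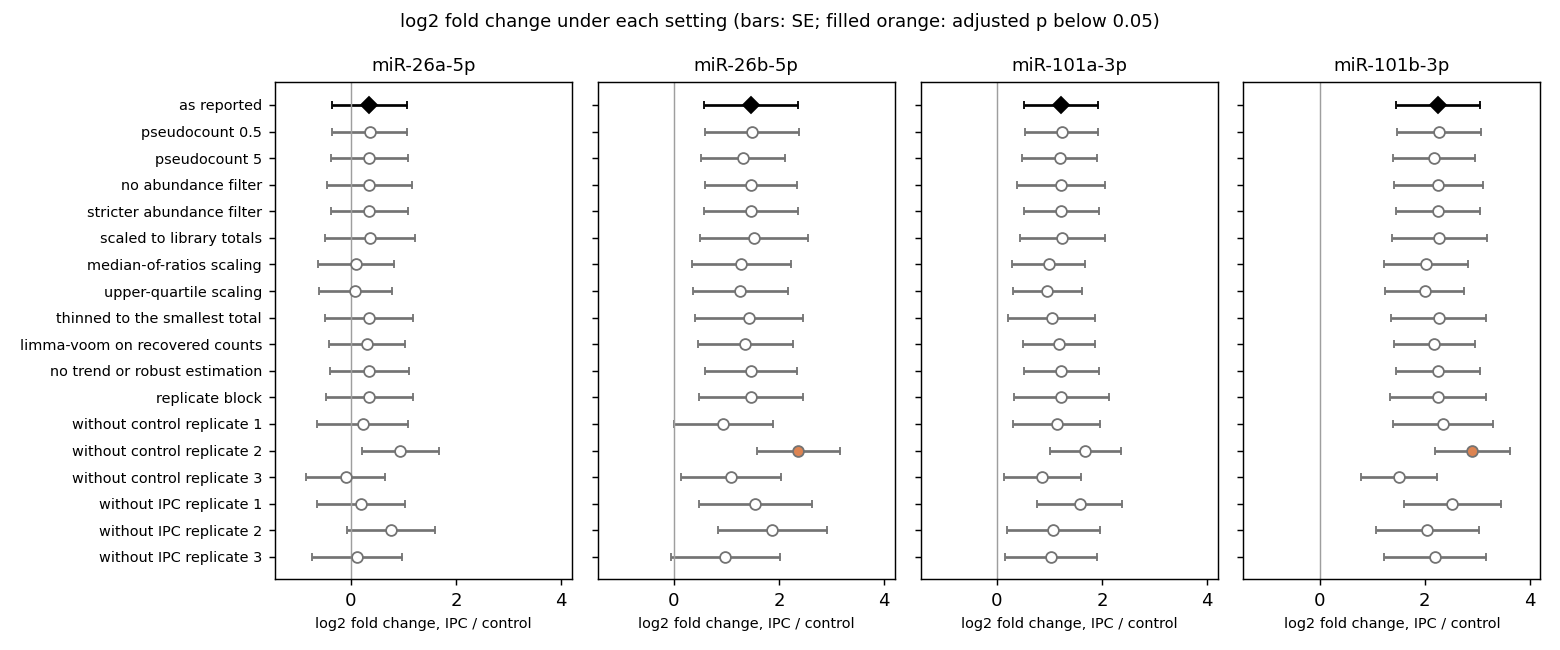
log2 fold change of IPC over control (horizontal axis, bars are SE) for each member under the reported setting and every alternative. Orange points, with an adjusted p below 0.05, occur for miR-26b-5p and miR-101b-3p without control replicate 2, at 2.37 and 2.91.

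Within a library, the members' ratios to each other use no scaling factor. Adapter ligation is known to favour some RNA ends, so such ratios are compared between libraries and not read as molar ratios. In controls miR-101a-3p had more counts than miR-101b-3p, at 34 against 30, 182 against 163 and 31 against 12 in replicates 1, 2 and 3. After IPC the order was the opposite in every library, at 465 against 721, 826 against 1234 and 496 against 575. miR-101b-3p made up 46.9%, 47.2% and 27.9% of the pair in control replicates 1, 2 and 3, and 60.8%, 59.9% and 53.7% in IPC replicates 1, 2 and 3. The groups did not overlap. By counting alone the shares were less sharply apart: the exact 95% binomial interval (Clopper-Pearson, counting error only) was 34.3% to 59.8% in control replicate 1 and 50.6% to 56.7% in IPC replicate 3. The log2 ratio of miR-101a-3p to miR-101b-3p was 0.56 ± 0.67 in controls and -0.47 ± 0.23 after IPC (± SD of 3), a difference of -1.03 (two-sided exact permutation test, p = 0.1, which is the lowest p possible with 3 against 3 libraries). Without control replicate 3, whose pair held 43 counts, the difference was -0.64.

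Inside the miR-26 pair, miR-26b-5p made up 2.04%, 6.04% and 4.09% in control replicates 1, 2 and 3 and 6.05%, 8.21% and 11.3% in IPC replicates 1, 2 and 3. Control replicate 2 and IPC replicate 1 were level within counting error, and the other IPC shares were above all controls. The log2 ratio of miR-26a-5p to miR-26b-5p was 4.61 ± 0.75 in controls and 3.47 ± 0.49 after IPC (± SD of 3), a difference of -1.14 (two-sided exact permutation test, p = 0.2). It was -0.73 without control replicate 1, whose miR-26b-5p rested on 4 counts.

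The balance between the families was the other ratio whose groups did not overlap. The miR-101 pair made up 24.6%, 20.1% and 20.1% of the counts on all 4 members in control replicates 1, 2 and 3, a narrow range although control replicate 2 held several times the counts. After IPC it made up 26.9%, 60.6% and 35.8% in replicates 1, 2 and 3, all above the controls, with IPC replicate 1 only just so. In IPC replicate 2 miR-101b-3p, with 1234 counts, and miR-26a-5p, with 1230, were level within counting error. miR-26a-5p was the highest member in each of the other libraries. The log2 ratio of the miR-26 pair to the miR-101 pair was 1.86 ± 0.22 in controls and 0.55 ± 1.06 after IPC (± SD of 3), a difference of -1.31 (two-sided exact permutation test, p = 0.1). Without IPC replicate 2 it was -0.72.

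**Figure D3:**
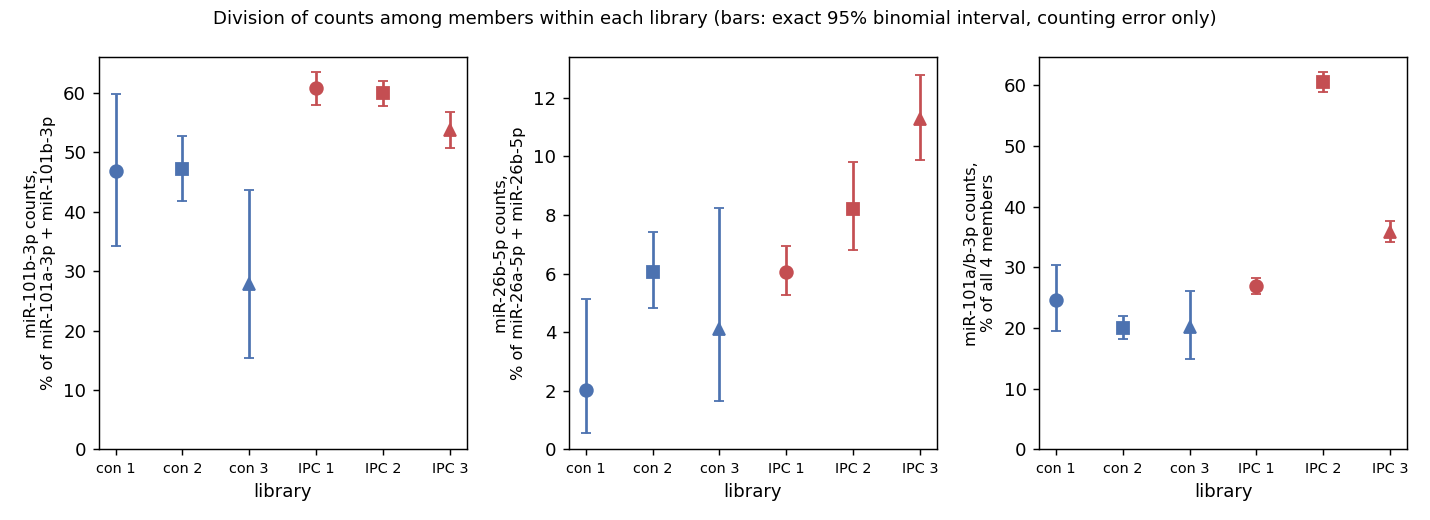
Share of counts within each library (vertical axes, percent): miR-101b-3p of its pair, miR-26b-5p of its pair, and the miR-101 pair of all 4 members, with exact 95% binomial intervals for counting error only. The left and right shares are higher in all 3 IPC libraries than in any control, as 53.7% to 60.8% against 27.9% to 47.2% and 26.9% to 60.6% against 20.1% to 24.6%.

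As a share of all miRNA counts in a library, the miR-101 pair took 0.0576%, 0.226% and 0.0331% in control replicates 1, 2 and 3 and 0.155%, 0.311% and 0.335% in IPC replicates 1, 2 and 3. The group means were 0.267% ± 0.0977 and 0.106% ± 0.105 (± SD of 3; two-sided exact permutation test, p = 0.2), with IPC replicate 1 under control replicate 2. The miR-26 pair took 0.177%, 0.902% and 0.132% in controls and 0.422%, 0.203% and 0.60% after IPC. Its means of 0.408% ± 0.199 after IPC and 0.403% ± 0.432 in controls did not differ beyond the spread (two-sided exact permutation test, p = 1.0). Over the 5 shares and ratios compared, the smallest Benjamini-Hochberg adjusted p of these exact tests was 0.25.

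The 3 nearest profiles over the 6 libraries, outside the members, differed between the families and also within the miR-26 pair, which shared none. The miR-101 pair shared miR-499-5p alone. Likeness was measured as the Pearson correlation (r) of log2(value + 1), with the Spearman correlation (rho) beside it. It is a description of 6 points that share depth and the position of control replicate 2. miR-26a-5p was most like miR-455-5p (r = 0.99, rho 0.94), followed by miR-379-5p (r = 0.95) and miR-144-3p (r = 0.93). miR-144-3p shares the miR-101 core, yet its r with miR-101a-3p was 0.37 and with miR-101b-3p 0.31. Another red-cell marker, miR-16-5p, had r = 0.93 with miR-101a-3p and 0.83 with miR-101b-3p, beside 0.68 with miR-26a-5p and 0.85 with miR-26b-5p. Likeness was not measured for the more abundant red-cell markers miR-451-5p and miR-486. Their log2 fold changes were -0.69 and 0.11, beside 1.35 for miR-16-5p and -0.16 for miR-144-3p, so the red-cell markers do not share a pattern. miR-26b-5p was most like miR-340-5p, miR-181a-1-3p and miR-503-5p (each r = 0.94).

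Muscle miRNAs were among the nearest profiles of the miR-101 pair. miR-101a-3p was most like let-7i-5p (r = 0.99, rho 1.0), then miR-1-3p of heart and skeletal muscle (r = 0.98) and miR-499-5p, encoded in a myosin gene (r = 0.97). miR-101b-3p was most like miR-872-3p (r = 0.99), miR-362-3p (r = 0.98) and miR-499-5p (r = 0.98). Between members, r was 0.95 for the miR-101 pair, 0.85 for the miR-26 pair, and 0.55 and 0.56 for miR-26a-5p with miR-101a-3p and miR-101b-3p. miR-26b-5p was nearer to the miR-101 pair than miR-26a-5p was, at r = 0.81 with miR-101a-3p and 0.75 with miR-101b-3p. Both were below the r of 0.85 that miR-26b-5p had with miR-26a-5p. The rho of miR-26b-5p with miR-101a-3p was 0.77, the same as with miR-26a-5p, and with miR-101b-3p 0.54.

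**Figure D4:**
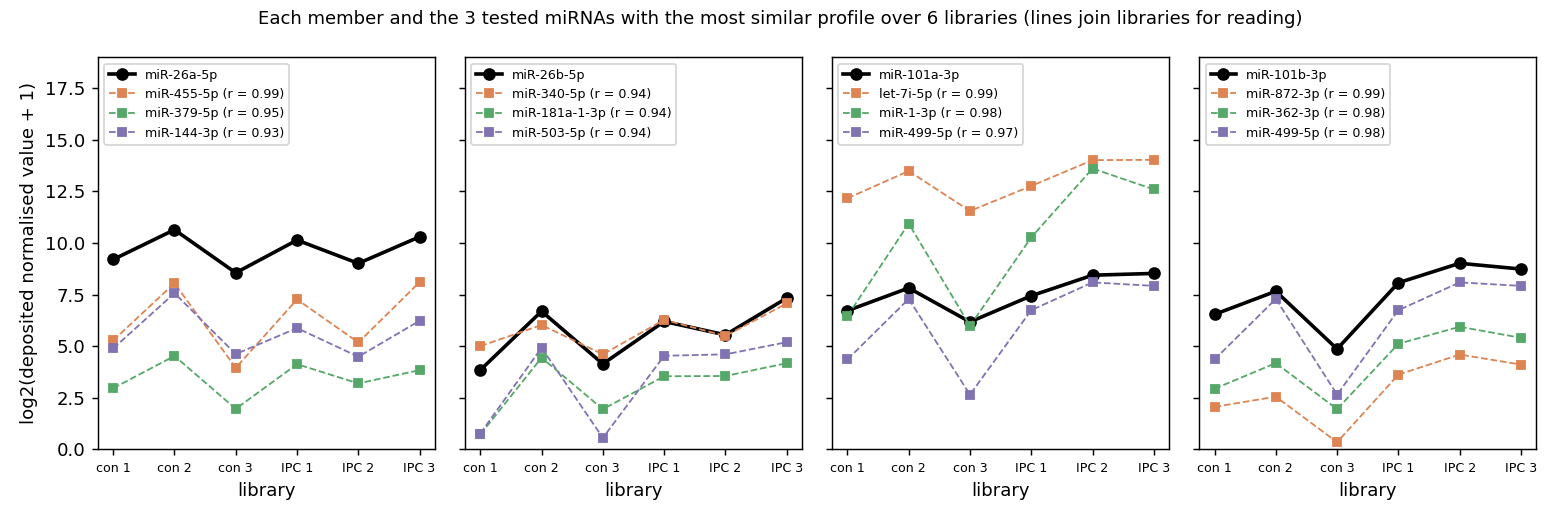
log2(deposited normalised value + 1) (vertical axis) of each member (black) and its 3 most similar tested miRNAs (colours, with r) in the 6 libraries, whose points are joined for reading. In IPC replicate 2 miR-26a-5p is at its lowest IPC value and miR-101b-3p at its highest (normalised values of 515 and 517 before the log).

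Muscle markers were higher in IPC than in control libraries on average. The muscle miRNA miR-1-3p had r = 0.98 and 0.94 with miR-101a-3p and miR-101b-3p, and 0.80 and 0.49 with miR-26b-5p and miR-26a-5p. All 6 listed muscle miRNAs (miR-1-3p, miR-133a-3p, miR-133b-3p, miR-206-3p, miR-208a-3p and miR-499-5p) had positive log2 fold changes, with a median of 2.83, and 0 were at 0 counts in any library. At an unadjusted p below 0.05 (limma), 6 of 6 were higher, against 8.85% of all tested miRNAs, while 0 passed the adjusted threshold. All IPC libraries were above all control libraries for 4 of them, against 12.4%. The list was chosen with earlier results of these data known, so these counts are not an independent test. Their summed normalised value ran from 643 to 3446 in controls and from 4049 to 23396 after IPC, with control replicate 2 the highest control and IPC replicate 2 the highest of all. Red-cell markers overlapped between the groups, with sums of 9568 to 23028 in controls and 12591 to 16087 after IPC. Platelet and leukocyte sums did not overlap either, at 1327 to 1969 in controls and 3034 to 4833 after IPC. Taken singly, 2 of these 4 markers had all IPC above all control libraries, against 12.4% of all tested miRNAs. At an unadjusted p below 0.05 (limma), 1 of 4 was higher, against 8.85%. miR-142-3p was level, at 103 ± 42.4 after IPC and 105 ± 43.7 in controls (± SD of 3), with a log2 fold change of -0.03. For 2 liver markers the sums overlapped, at 3494 to 4239 in controls and 1615 to 4146 after IPC. The part of these cells in the miR-101 values was not tested. All IPC libraries were also deeper than all controls, so depth and group cannot be told apart. With every library thinned to 111048 counts the log2 fold change of miR-101b-3p was 2.26 (limma, adjusted p = 0.472). That of miR-101a-3p was then 1.04 (limma, adjusted p = 0.652).

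Other miRNAs reported to target Ezh2, mostly in human tumour cells, give the wider pathway. Of 13 listed, 10 were tested, 7 had a positive and 3 a negative log2 fold change (62.8% of all tested were positive), 0 had an unadjusted p below 0.05 (8.85% of all tested were higher at that level), and the median was 0.41, beside 0.38 for all tested miRNAs. miR-25-3p, from the cluster in the Mcm7 gene, had the highest mean over all libraries, with 1784 ± 269 after IPC and 1226 ± 206 in controls (± SD of 3; limma, log2 fold change 0.54, SE 0.58, adjusted p = 0.714). let-7b-5p, a let-7 family member, was at 569 ± 32.0 and 2337 ± 2820, with -1.30 (SE 0.83, adjusted p = 0.537). Its control mean was carried by control replicate 3, with 2449 recovered counts against 271 and 477 in control replicates 1 and 2. let-7c-5p was at 1235 ± 604 and 876 ± 402, with 0.47 (SE 0.65). miR-144-3p, which shares the miR-101 core, was at 51.2 ± 27.0 and 80.4 ± 94.1, with -0.16 (SE 0.90). Of the 3 not tested, miR-124-3p and miR-137-3p of neurons had 0 counts in every library, and miR-217-5p of pancreas had 5 counts in control replicate 2, 2 in IPC replicate 2, 1 in IPC replicate 3 and none in the remaining libraries.

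A list of 12 miRNAs reported to limit or promote fibrosis of the heart had 10 tested, 8 with positive (62.8% over all tested) and 2 with negative log2 fold changes, a median of 1.25, and 0 past the adjusted threshold. At an unadjusted p below 0.05, 2 of 10 were higher, against 8.85% of all tested miRNAs: miR-133a-3p and miR-208a-3p, which also stand in the muscle list. The most abundant was miR-24-3p, at 17701 ± 3584 after IPC and 11525 ± 5407 in controls (± SD of 3; log2 fold change 0.74, SE 0.60). miR-133a-3p was at 3765 ± 2904 and 686 ± 231 (2.25, SE 0.69, unadjusted p = 0.00727, adjusted p = 0.341). miR-29a-3p, which targets collagen mRNAs, was at 2595 ± 1203 and 1114 ± 521 (1.23, SE 0.68).

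**Figure D5:**
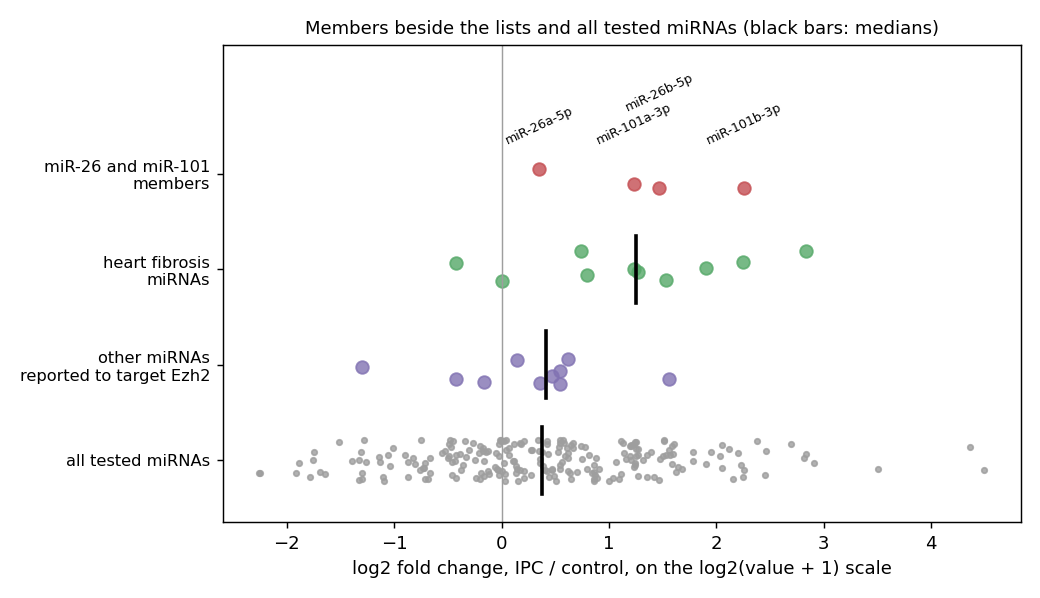
log2 fold change of IPC over control on the log2(value + 1) scale (horizontal axis) for the 4 members, the 10 tested heart fibrosis miRNAs, the 10 other tested miRNAs reported to target Ezh2, and all 226 tested miRNAs, with black bars at the medians of 1.25, 0.41 and 0.38. miR-26a-5p, at 0.35, lies beside the median of all tested miRNAs and miR-101b-3p, at 2.25, near its upper end.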

How the data were processed

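Small RNA libraries from 1 µg of RNA were sequenced as 50 bp single reads, per the labels' protocols. The tools FastQC, BWA and edgeR and build rn6 are named in the submitters' processing notes. The authors deposited 1 table with a normalised signal per library, a log2 fold change and a p-value without adjustment, per the file headers.

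The signal has the form of counts quantile-adjusted within each group to a common size of 265919, with a negative binomial dispersion of 0.503, a form inferred from the values. Inverting it gave whole counts (within 0.01) for 4578 of 4578 values, and for 2880 of 2880 in simulated data. The main test was limma 3.58.1 (R 4.3.3, trend, robust) on log2(signal + 1), Benjamini-Hochberg adjusted over 226 miRNAs with 34.9 CPM or more (scaled counts, equal to 10 counts at the median size) in 3 libraries and 15 counts in all. It was also run on simulated counts, and its rates of calls there are not given here. Shares and ratios (0.5 added to counts) used exact tests over 20 assignments. Intervals and floors (3 counts) cover counting error only. Libraries of a group differed beyond sampling noise (chi-square per degree of freedom 131 to 611). Numbers in the titles were not treated as pairs.

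Named miRNAs were the members, their opposite arms, seed sharers, the 3 most similar profiles per member, and the 3 most abundant (mean over all libraries) of each of the Ezh2 and fibrosis lists; others are given as markers or were named after their values were seen (miR-124-3p, miR-137-3p, miR-217-5p). Members and lists were chosen with earlier results of these data known. RefSeq sequences matched all 4 members. Other steps used Python 3.11.15 with pandas 2.3.3, scipy 1.17.1, numpy 2.4.6 and, for figures, matplotlib 3.10.9.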

Additional observations from a re-analysis of the deposited data

How the results depend on the processing

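Under 11 alternatives that keep all libraries (pseudocount, filter, scaling, thinning, limma-voom, plain limma, replicate block), the 4 members kept their direction and their side of the threshold. Their log2 fold changes ran from 0.080 to 0.36 for miR-26a-5p, 1.26 to 1.52 for miR-26b-5p, 0.96 to 1.24 for miR-101a-3p and 2.00 to 2.27 for miR-101b-3p. Leaving out 1 library gave -0.10 to 0.94, 0.94 to 2.37, 0.87 to 1.69 and 1.51 to 2.91. The count of miRNAs called higher, 0 as reported, was 3 without the abundance filter, 2 with the replicate block and 0 to 29 with a library left out, and the count called lower was 0 to 9 with a library left out. Median-of-ratios and upper-quartile scaling lowered the median of all tested miRNAs from 0.38 to 0.19 and 0.17.

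The IPC minus control difference in the miR-26 share, 0.0050 percentage points, turned to -0.030 as a share of counts outside the 10 most abundant miRNAs and ran from -0.13 to 0.25 with a library left out. The miR-101 share difference, 0.162, was 0.368 as a share of counts outside those 10 and ran from 0.125 to 0.222 with a library left out. The log2 ratio differences ran from -1.47 to -0.73 for miR-26a-5p to miR-26b-5p, -1.23 to -0.64 for miR-101a-3p to miR-101b-3p and -1.75 to -0.72 between the families. With deposited values or 5 added to counts the first was -0.62 at its smallest. With the replicate block, as sign flips within numbers, these 5 kept their values. The p of this sign-flip test was at least 0.25, which is the lowest p possible with 3 numbers. Deviations of same-numbered libraries correlated at 0.13, -0.18 and -0.51 for numbers 1, 2 and 3, and those of differently numbered ones at -0.42 to 0.64. The titles do not state what the numbers mark, so they were not taken as pairs. For each shift the cause was not tested. Low control counts, 4 to 83 for miR-26b-5p and 12 to 163 for miR-101b-3p, limit precision.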
